A study of Mus musculus with 11 samples.

Results

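The subunits of oxidative phosphorylation were followed in 3T3-L1 cells given troglitazone, pioglitazone or rosiglitazone. Members were taken by symbol: probe sets annotated to 1 gene whose symbol starts with Nduf, Uqcr, Cox4 to Cox8 or Atp5, the genes Sdha to Sdhd, and Cyc1 and Cycs. The rule found 101 of the 12422 probe sets that are not array controls. They stand for 73 genes, all of which were tested among 7962 genes in all: 31 of complex I, 4 of complex II, 8 of complex III, cytochrome c itself, 15 of complex IV and 14 of the ATP synthase. Of the 101 probe sets, 2 did not pass the filter on low values and were not tested, 1 of Cox6b2 and 1 of Cox8c; other probe sets stand for both genes. Another 10 probe sets match several genes each, mostly a subunit and its pseudogene or copy (Ndufb4, Ndufs5, Ndufs6, Ndufa11 and Cox7c among them), and were left out.

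3T3-L1 is a mouse fibroblast line whose cells can become fat cells in culture, and the labels do not say whether the cells had been differentiated. Total RNA was measured on 1 one-colour oligonucleotide array per sample after 24 h of treatment. Of the samples 3 received troglitazone at 20 µM, 2 pioglitazone at 20 µM, 3 rosiglitazone at 1 µM, and 3 the vehicle, 0.1% DMSO, which each drug was set against. The titles place the 11 arrays in 2 sets: replicates 1 and 2 of every group form set 1, and replicate 4 of troglitazone, rosiglitazone and vehicle forms set 2. The labels do not say whether replicates came from separate cultures, so p-values measure only the spread between these samples, and the number of arrays limits the precision.

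Oxidative phosphorylation takes place in the inner mitochondrial membrane. Complex I passes electrons from NADH to ubiquinone and complex II passes them from succinate; complex III hands them to cytochrome c, a small soluble carrier, and complex IV passes them on to oxygen. Complexes I, III and IV pump protons as they work, and the ATP synthase lets the protons flow back to make ATP. The thiazolidinediones used here activate PPARγ, the nuclear receptor that drives fat cell formation, and mitochondrial genes are among those known to respond to such drugs in fat cells. Most subunits come from nuclear genes, and those were measured here; 0 of 26 symbols listed for the subunits that mitochondrial DNA encodes were found among the annotated probe sets. A lower or higher signal can come from fewer or more cells of a type or from less or more RNA per cell, which cannot be told apart.

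Known binding motifs of the factors that control these genes were searched on both strands of the RefSeq promoter windows (build GRCm38.p6, from 250 bases before to 50 bases after a gene's start), which were found for 59 of the 73 genes. The letters GCGCATGCG, bound by NRF1, lay in 9 of 64 member promoters (14.1%) and in 1.75% of all 32851 promoters. AAGATGGC, bound by YY1, lay in 8 member promoters (12.5%) against 2.75% of all promoters. CCGGAAGT, a site of ETS factors such as GABP, lay in 4 (6.25%) against 3.89%. TCAAGGTCA, bound by the estrogen-related receptors, lay in 1 (1.56%) against 0.423%. An exact pair of AGGTCA letters with 1 base between them, a form of the element PPARγ binds, lay in 0 member promoters and in 0.0396% of all promoters. So rare an exact match could hardly be found among 64 promoters. The 0 therefore does not show that these genes lack PPARγ elements. The motif of NRF1 is nearly the same on both strands, so some of its matches overlap each other. A match is a description of these letters and does not show that the factor binds there. The NRF1 and ETS matches are shown for Cycs (chr6:50566570-50566819, minus strand) and Uqcrh (chr4:116075071-116075320, minus strand), 2 genes whose changes are described below, chosen because both rose, with the 250 bases before the start and the motif in capitals on whichever strand it was found. For Sdhd, the member with the estrogen-related receptor motif, 30 bases inside the transcript are shown (chr9:50603800-50603829, minus strand). In all 21 member genes held a motif, and these 3 are those of them that rose in the mean of the drugs; the other 18 did not. Of the 11 promoters found for genes that rose in that mean, 1 held the NRF1 letters, 1 the ETS letters, 1 those of the estrogen-related receptors and 0 those of YY1.
Cycs: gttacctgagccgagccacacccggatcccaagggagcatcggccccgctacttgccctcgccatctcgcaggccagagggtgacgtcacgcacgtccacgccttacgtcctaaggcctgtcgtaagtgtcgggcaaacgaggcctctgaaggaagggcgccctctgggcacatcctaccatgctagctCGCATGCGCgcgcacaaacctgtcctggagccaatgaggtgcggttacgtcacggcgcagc
Uqcrh: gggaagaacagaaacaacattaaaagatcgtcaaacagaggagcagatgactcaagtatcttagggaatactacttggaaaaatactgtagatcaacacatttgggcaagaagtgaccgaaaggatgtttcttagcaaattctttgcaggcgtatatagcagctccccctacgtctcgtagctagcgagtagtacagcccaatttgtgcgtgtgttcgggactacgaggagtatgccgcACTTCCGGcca
Sdhd: tttccgggttgtagagTGACCTTGAgccct

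With each drug some subunit genes of complexes I and III rose, and no member fell. In complex IV only Cox6a2 rose with each drug, 1 of 15 genes. In the ATP synthase 1 of 14 genes rose with troglitazone, 2 with pioglitazone and 2 with rosiglitazone. A gene, read by its brightest tested probe set, is said to rise or fall where limma's p, adjusted by Benjamini-Hochberg over all 11739 tested probe sets, was under 0.05. The fold change is the log2 difference of the deposited signals between drug and vehicle in a model with a term for the set, and each standard error (SE) comes from that model. With troglitazone 7 of the 73 genes rose (9.59%), against 0.967% of all tested genes called higher. With pioglitazone 12 rose (16.4%, against 0.728%), and with rosiglitazone 14 (19.2%, against 0.98%). In the mean of the drugs 14 genes rose, against 1.6% of all tested genes. Called lower were 0 members in each of these comparisons, against 0.666% of all genes with troglitazone, 0.327% with pioglitazone, 0.628% with rosiglitazone and 0.98% for the mean of the drugs. The median log2 fold change of the 73 genes was 0.20 with troglitazone, 0.43 with pioglitazone and 0.38 with rosiglitazone, while that of all tested genes was -0.03, -0.08 and -0.01 in the same order. Of the 73 values, 56 lay above 0 with troglitazone, 63 with pioglitazone and 64 with rosiglitazone, against 46.5%, 43.5% and 48.8% of all tested genes. The comparisons share the vehicle arrays, so they are not independent of each other.

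The members are bright, and bright genes passed the test more often. Of the 73 genes, 50 had a mean log2 signal above 11 (68.5%), against 7.66% of all tested genes. There were 610 genes this bright, which include these 50 members. Of the 610, 56 were called higher with troglitazone (9.18%), 52 with pioglitazone (8.52%) and 61 with rosiglitazone (10%). For the mean of the drugs 91 were (14.9%). Of the 50 bright members 6 rose with troglitazone, 11 with pioglitazone, 12 with rosiglitazone and 12 for the mean of the drugs. With troglitazone the share of the bright members was thus close to that of all bright genes. The median log2 fold change of the bright members was 0.23 with troglitazone, 0.47 with pioglitazone and 0.44 with rosiglitazone, against 0.12, 0.20 and 0.08 for all bright genes; the limit of 11 was set after the data were seen. The other 23 members had medians of -0.04, 0.22 and 0.17 in the same order, and 1, 1 and 2 of them rose.

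**Figure D1:**
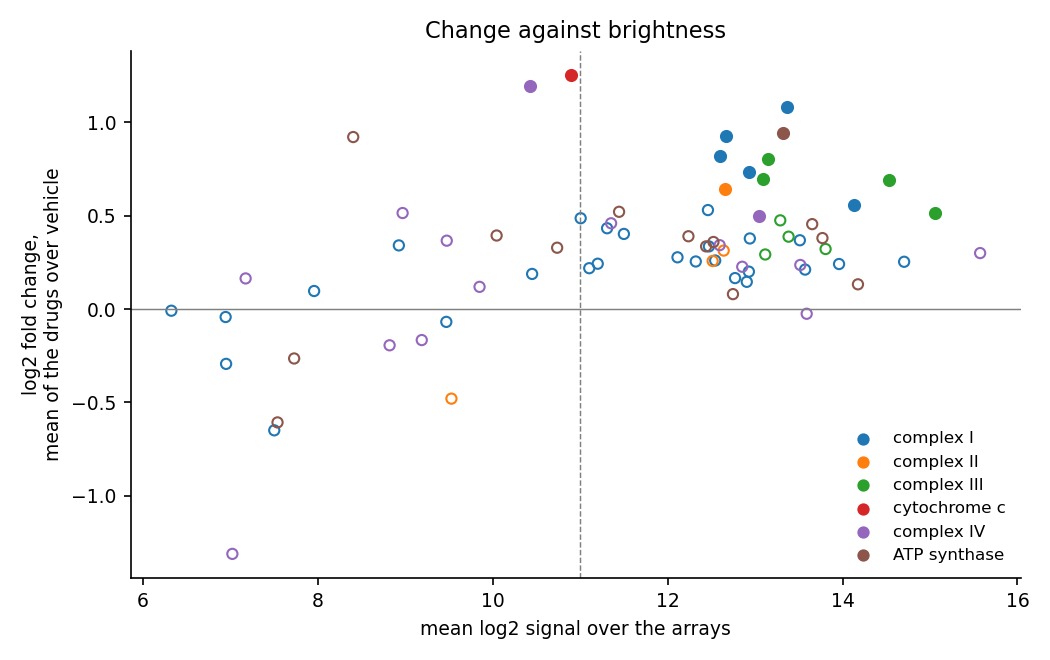
Log2 fold change of the mean of the drugs over vehicle (vertical) against mean log2 signal over the 11 arrays (horizontal) for the 73 genes, coloured by complex; filled points had an adjusted p under 0.05 and the dashed line stands at 11. Of the 14 filled points 12 lie right of the dashed line, and the 2 lowest members, Cox5a and Ndufa1, lie left of it.

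The shift was present on every drug array. Measured against the vehicle mean of its own set, the median member was 0.16 to 0.27 higher (log2) on the 3 troglitazone arrays, 0.37 and 0.46 higher on the 2 pioglitazone arrays and 0.36 to 0.43 higher on the 3 rosiglitazone arrays. Between 50 and 58 of the 73 genes lay above that mean on the troglitazone arrays, 61 and 67 on the pioglitazone arrays and 60 on each rosiglitazone array. Of all tested genes, 39.9% to 46.1% did on the troglitazone arrays, 43.4% and 43.7% on the pioglitazone arrays and 40.1% to 49.2% on the rosiglitazone arrays. Set 2 holds 1 array of each of its groups, and limma's interaction test of a drug effect between the sets called 0 of 11739 probe sets for troglitazone and for rosiglitazone, with an adjusted p of 1 for every member (2 and 6 members at an unadjusted p under 0.05). It therefore does not show that the sets agree.

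**Figure D2:**
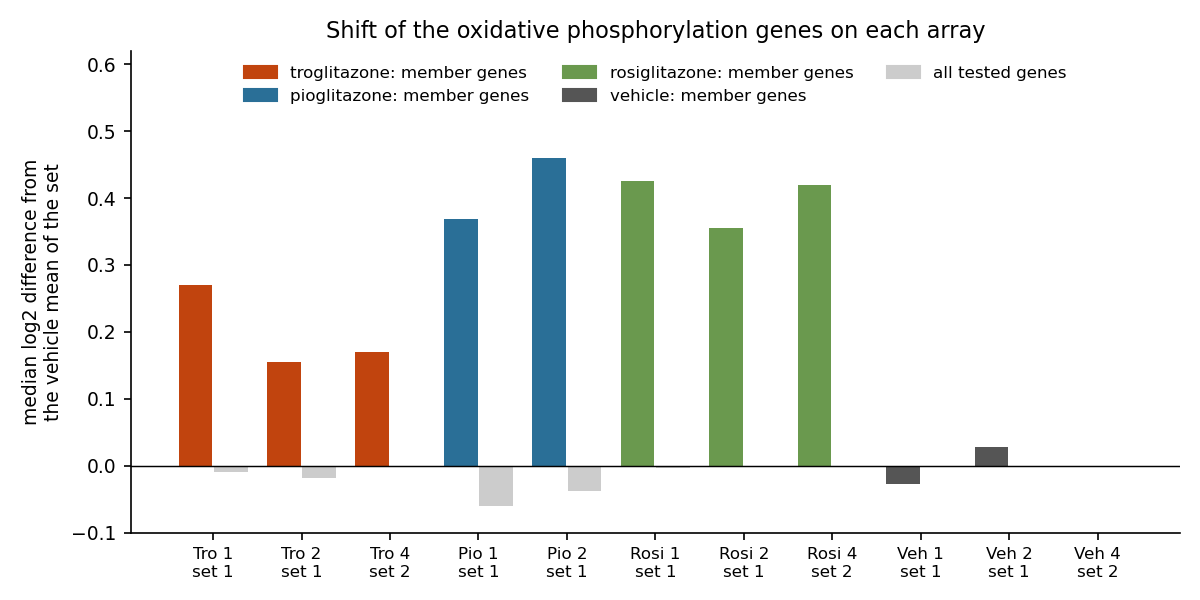
Median log2 difference from the vehicle mean of the same set on each array, for the 73 member genes (coloured bars) and for all tested genes (grey bars). The member bars of the 8 drug arrays lie between 0.16 and 0.46, while the vehicle bars lie between -0.03 and 0.03; set 2 holds 1 vehicle array, whose bars are 0 by construction.

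The calls rest on few arrays and on the model. Without the prior that follows the signal (limma's intensity trend) 0 members were called with any drug, while 13, 18 and 24 members had an unadjusted p under 0.05 with troglitazone, pioglitazone and rosiglitazone. Without the set term 1, 0 and 0 rose, and 11 and 20 members had an unadjusted p under 0.05 with pioglitazone and rosiglitazone. With troglitazone, the count of 7 became 1 without troglitazone replicate 1 or 4 or vehicle replicate 2, 2 without troglitazone replicate 2 or vehicle replicate 1, 3 without rosiglitazone replicate 1, and 4 without rosiglitazone replicate 4 or vehicle replicate 4. With pioglitazone, the count of 12 became 6 without pioglitazone replicate 1 or vehicle replicate 1 and 5 without vehicle replicate 2. With rosiglitazone, the count of 14 became 4 to 9 when any 1 array other than the 2 pioglitazone arrays was left out. For the mean of the drugs the count of 14 became 8 without vehicle replicate 2 and 9 without vehicle replicate 4. Ndufa5, Ndufb10, Uqcrb, Uqcrh, Cyc1, Cox6a2 and Atp5o kept their call for the mean of the drugs whichever array was left out.

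In the following, signals are listed in replicate order, so that the last of 3 values is the array of set 2, and fold changes come from the model with its set term. In complex I, 5 of 31 genes rose for the mean of the drugs, 3 with troglitazone, 5 with pioglitazone and 5 with rosiglitazone. The median log2 fold change was 0.20 with troglitazone, 0.40 with pioglitazone and 0.33 with rosiglitazone; after quantile normalisation it was 0.07 with troglitazone, 0.27 with pioglitazone and 0.32 with rosiglitazone. The 5 are Ndufa5, an accessory subunit of the arm that reaches into the matrix, and Ndufb5, Ndufb6, Ndufb7 and Ndufb10, accessory subunits of the proton-pumping arm in the membrane.

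Ndufa5 had signals of 9986, 8351 and 15793 on the troglitazone arrays, 16229 and 13894 on the pioglitazone arrays and 11853, 9633 and 19841 on the rosiglitazone arrays, against 5693, 4798 and 10205 on the vehicle arrays. Both pioglitazone arrays lay above every vehicle array, and in each set every drug array lay above the vehicle arrays of that set. The log2 fold change was 0.75 ± 0.13 with troglitazone (SE; adjusted p = 0.00797), 1.495 ± 0.15 with pioglitazone (adjusted p = 0.000138) and 1.01 ± 0.13 with rosiglitazone (adjusted p = 0.000901). The pioglitazone change was the highest of any member with that drug.

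Ndufb10 had signals of 7625, 7046 and 10742 on the troglitazone arrays, 8129 and 9204 on the pioglitazone arrays and 9185, 7565 and 13171 on the rosiglitazone arrays, against 5295, 4811 and 6746 on the vehicle arrays. All drug arrays lay above all vehicle arrays. Its log2 fold changes were 0.58 ± 0.13, 0.82 ± 0.15 and 0.80 ± 0.13 with troglitazone, pioglitazone and rosiglitazone (adjusted p = 0.0348, 0.0124 and 0.00349). The troglitazone call was kept in 3 of 11 fits that each left out 1 array.

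Ndufb6 had signals of 6534, 5924 and 10660 with troglitazone, 8821 and 5919 with pioglitazone and 6529, 7031 and 11062 with rosiglitazone, against 3135, 2919 and 8616 with vehicle. The groups overlapped across the sets but not within them. The log2 fold changes were 0.80 ± 0.18 with troglitazone, 1.09 ± 0.21 with pioglitazone and 0.90 ± 0.18 with rosiglitazone (adjusted p = 0.0429, 0.0189 and 0.0203). In set 2 alone troglitazone stood 0.31 above vehicle on the log2 scale and rosiglitazone 0.36, against 1.04 and 1.16 in set 1. The calls were kept in 3 of 11 leave-one-out fits with troglitazone and in 7 with pioglitazone and with rosiglitazone.

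Ndufb7 had signals of 6217, 5958 and 7196 with troglitazone, 8656 and 8865 with pioglitazone and 5792, 5589 and 10209 with rosiglitazone, against 4584, 4049 and 4121 with vehicle. Every drug array was above every vehicle array. It rose with pioglitazone (log2 fold change 1.16 ± 0.19, adjusted p = 0.00665) and with rosiglitazone (0.70 ± 0.16, adjusted p = 0.0458), a call that was lost whichever array was left out (adjusted p up to 0.278); with troglitazone the value was 0.60 ± 0.16 (adjusted p = 0.112). Ndufb5 rose with pioglitazone (0.82 ± 0.13, adjusted p = 0.00682) and rosiglitazone (0.53 ± 0.12, adjusted p = 0.0371), and its troglitazone value was 0.32 ± 0.12 (adjusted p = 0.361). Its rosiglitazone call was kept in 2 of 11 fits that each left out 1 array.

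By place in the enzyme, 4 of 17 membrane-arm genes rose for the mean of the drugs (median log2 fold change 0.37), 0 of 9 genes of the module that oxidises NADH (median 0.24) and 1 of 2 of the module that reduces ubiquinone. The NADH module includes Ndufv1, Ndufv2 and Ndufs1, core subunits that carry its flavin and iron-sulfur clusters. Their log2 fold changes were 0.22, 0.27 and 0.25 with troglitazone, 0.31, 0.29 and 0.09 with pioglitazone and 0.19, 0.44 and 0.32 with rosiglitazone, and none passed. The rule also takes Ndufaf1 and Ndufaf4, which help to assemble complex I and are no subunits of it; their values for the mean of the drugs were -0.07 and 0.10. Ndufa1, a membrane-arm subunit, had the lowest value of complex I at -0.65 ± 0.48 (adjusted p = 0.724), and a second probe set of the gene gave -0.01. It was dim, with 149, 112 and 42.9 on the troglitazone arrays, 236 and 400.1 on the pioglitazone arrays and 165, 345 and 52.5 on the rosiglitazone arrays, against 405, 398 and 88.6 on the vehicle arrays.

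Further probe sets exist for 3 of the 5 complex I genes that rose, and all were far dimmer. The log2 change for the mean of the drugs was 0.24 for that of Ndufb10, -0.12 for that of Ndufb6 and 0.35 for that of Ndufb7, and none passed. Their mean log2 signals were 6.37, 6.38 and 6.44, close to the floor of 73.7 to which lower signals were raised. The probe sets that stand for Ndufa5 and Ndufb5 carry identifier suffixes for possible cross-hybridisation, as do those of Uqcrb and Atp5e, so related transcripts may add to their signal. With all such probe sets left out, an alternative chosen after seeing the data, 60 member genes remain, of which 5 rose with troglitazone, 8 with pioglitazone and 11 with rosiglitazone.

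**Figure D3:**
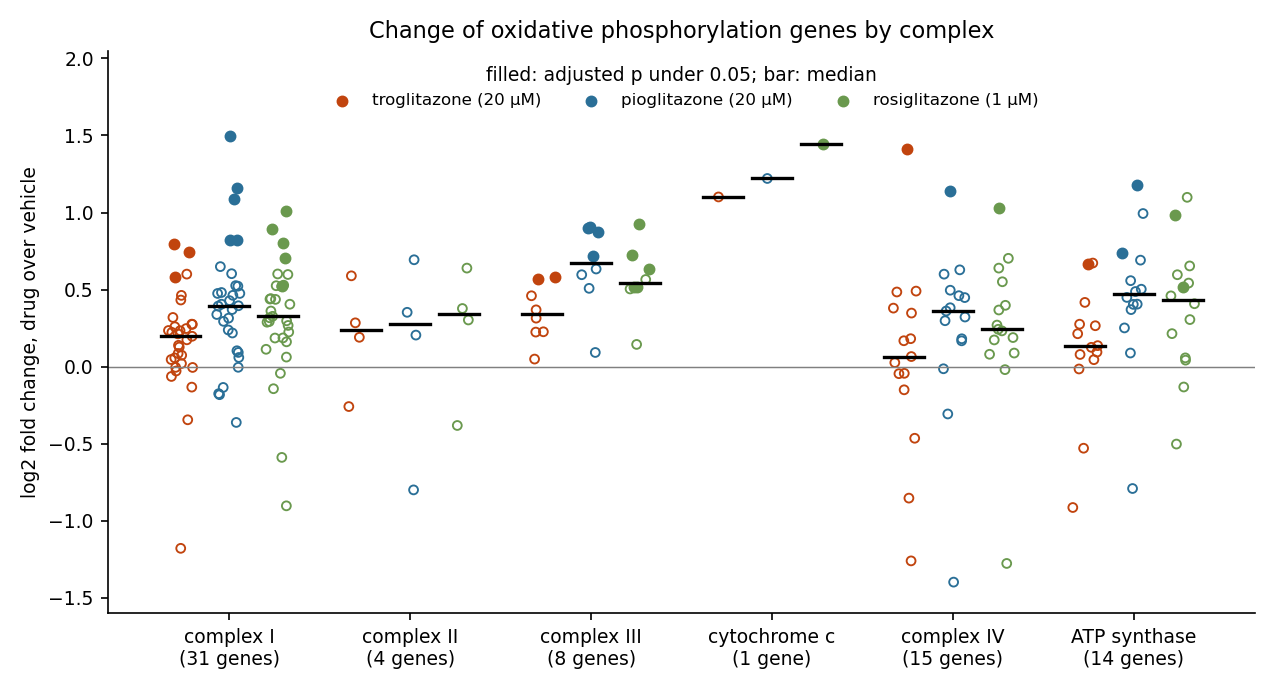
Log2 fold change of each member gene with troglitazone, pioglitazone and rosiglitazone over vehicle, grouped by complex; filled points had an adjusted p under 0.05, open points did not, and bars are medians. All 8 complex III genes lie above 0 with each drug, while complex IV spans from -1.40 to 1.41.

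In complex II, which also serves the citric acid cycle, 1 of 4 genes rose, and only in the mean of the drugs. That was Sdhd, 1 of the pair of proteins that anchor the enzyme in the membrane. It had signals of 5962, 8053 and 7730 with troglitazone, 8362 and 5694 with pioglitazone and 6729, 6301 and 9716 with rosiglitazone, against 3523, 4620 and 6696 with vehicle. Within each set every drug array was above the vehicle arrays, and the vehicle array of set 2 lay among the drug arrays of set 1. The log2 fold change was 0.64 ± 0.15 for the mean of the drugs (adjusted p = 0.0378), a call kept in 2 of 11 fits that each left out 1 array. With the drugs taken singly it was 0.59, 0.69 and 0.64 with troglitazone, pioglitazone and rosiglitazone (adjusted p = 0.199, 0.18 and 0.126).

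Sdhb, the iron-sulfur subunit, had signals of 6640, 5926 and 7974 with troglitazone, 7341 and 5525 with pioglitazone and 6424, 5517 and 9203 with rosiglitazone, against 5126, 4861 and 6974 with vehicle. Sdhc, the other anchor, had 5020, 6407 and 6603 with troglitazone, 5465 and 5316 with pioglitazone and 6482, 5228 and 9242 with rosiglitazone, against 4268, 4942 and 6777 with vehicle. The drug arrays of Sdhb were above the vehicle arrays of their set, while for Sdhc the troglitazone array of set 2 was not. For the mean of the drugs the log2 fold changes were 0.31 ± 0.12 for Sdhb and 0.26 ± 0.12 for Sdhc (adjusted p = 0.29 and 0.5).

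Sdha, the flavoprotein that oxidises succinate, was the complex II gene with values below 0. It had signals of 648, 808 and 898 with troglitazone, 287 and 898 with pioglitazone and 590, 710 and 871 with rosiglitazone, against 884, 1012 and 901 with vehicle. Pioglitazone replicate 1 was the lowest array by a wide margin, and pioglitazone replicate 2 lay among the vehicle arrays. All 3 rosiglitazone arrays lay below every vehicle array, with a log2 change of -0.38 (limma, adjusted p = 0.745). The log2 change with pioglitazone was -0.80 (adjusted p = 0.545); without pioglitazone replicate 2 it was -1.62 ± 0.33 (adjusted p = 0.0483), so the call rests on 1 array.

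Complex III showed the highest median change of the 4 complexes and the ATP synthase with each drug, though not under every scaling. All 8 genes lay above 0 with each drug. With troglitazone 2 rose, with pioglitazone 4, with rosiglitazone 5 and for the mean of the drugs 4, and the medians were 0.34, 0.67, 0.54 and 0.49 in that order. After quantile normalisation 7 of the 8 lay above 0 with troglitazone and with pioglitazone, and 8 with rosiglitazone. The medians were then 0.15 with troglitazone, below the 0.16 of complex II, 0.42 with pioglitazone and 0.43 with rosiglitazone.

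Uqcrb, a small subunit that lies near the ubiquinone site, had signals of 8481, 7094 and 14157 with troglitazone, 8840 and 10216 with pioglitazone and 10204, 8551 and 19873 with rosiglitazone, against 4943, 5538 and 9223 with vehicle. In each set all drug arrays were above the vehicle arrays, and across sets the groups overlapped. Its log2 fold changes were 0.58 ± 0.13, 0.90 ± 0.15 and 0.93 ± 0.13 with troglitazone, pioglitazone and rosiglitazone (adjusted p = 0.0424, 0.00838 and 0.00158). Cyc1, cytochrome c1, the heme subunit that passes electrons to cytochrome c, had signals of 25711, 20638 and 32438 with troglitazone, 30464 and 24867 with pioglitazone and 21524, 24996 and 36396 with rosiglitazone, against 14362, 14662 and 24986 with vehicle. Its pattern over the sets was like that of Uqcrb, with the set 2 vehicle array level with several drug arrays of set 1. It rose with troglitazone (0.57 ± 0.13, adjusted p = 0.0486), pioglitazone (0.88 ± 0.15, adjusted p = 0.00992) and rosiglitazone (0.63 ± 0.13, adjusted p = 0.0256). The Cyc1 calls were kept in 2 of 11 fits that each left out 1 array with troglitazone, 8 with pioglitazone and 4 with rosiglitazone, and the Uqcrb call in 3 with troglitazone. A second, dimmer probe set of Cyc1 gave 0.27 for the mean of the drugs and did not pass.

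Uqcrh, the acidic hinge protein between cytochrome c1 and cytochrome c, had signals of 8249, 7438 and 10895 with troglitazone, 9735 and 11412 with pioglitazone and 9786, 8995 and 13078 with rosiglitazone, against 5894, 5182 and 8412 with vehicle. All pioglitazone and rosiglitazone arrays were above all vehicle arrays, while 2 of the 3 troglitazone arrays were below the vehicle array of set 2. It rose with pioglitazone (0.90 ± 0.14, adjusted p = 0.00522) and rosiglitazone (0.72 ± 0.12, adjusted p = 0.0062); with troglitazone the value was 0.46 ± 0.12 (adjusted p = 0.104). Uqcrq, another small subunit, likewise rose with pioglitazone (0.71 ± 0.14, adjusted p = 0.0189) and rosiglitazone (0.51 ± 0.12, adjusted p = 0.0468), and its troglitazone value was 0.31 (adjusted p = 0.391). The Uqcrq calls were kept in 4 of 11 fits that each left out 1 array with pioglitazone and in 2 with rosiglitazone. Uqcr11 passed only with rosiglitazone (0.52 ± 0.12, adjusted p = 0.05 after rounding), a call lost whichever array was left out; its pioglitazone value was 0.60 (adjusted p = 0.0627) and its troglitazone value 0.05. The core proteins Uqcrc1 and Uqcrc2 and the small subunit Uqcr10 did not pass, with 0.29, 0.32 and 0.48 for the mean of the drugs.

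Cycs, the mobile carrier cytochrome c, had the highest log2 change of the members for the mean of the drugs, 1.26 ± 0.26 (adjusted p = 0.0195). It had signals of 1991, 2022 and 2605 with troglitazone, 1184 and 4182 with pioglitazone and 2413, 2695 and 3295 with rosiglitazone, against 902, 1091 and 1080 with vehicle. Every drug array was above every vehicle array, but the 2 pioglitazone arrays differed by more than the other groups spanned, and the lower lay just above vehicle. It passed with rosiglitazone (1.44 ± 0.32, adjusted p = 0.0345); with troglitazone the value was 1.10 ± 0.32 (adjusted p = 0.15) and with pioglitazone 1.22 ± 0.36 (adjusted p = 0.178). The call for the mean of the drugs was kept in 3 of 11 fits that each left out 1 array, and the rosiglitazone call in 2. The testis form of cytochrome c, Cyct, was close to the floor and did not pass.

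In complex IV, Cox6a2 rose with all the drugs, and Cox5b rose in their mean. Of the 15 genes 1 rose with each drug and 2 in the mean of the drugs; the medians were 0.07 with troglitazone (0.03 after quantile normalisation), 0.36 with pioglitazone and 0.24 with rosiglitazone. Cox6a2 encodes the form of subunit VIa typical of heart and skeletal muscle. It had signals of 1950, 2114 and 1998 with troglitazone, 1849 and 1404 with pioglitazone and 1494, 1272 and 1940 with rosiglitazone, against 703, 812 and 762 with vehicle. No drug array came near the vehicle arrays, and the 2 sets did not differ in vehicle level. The log2 fold change was 1.41 ± 0.20 with troglitazone (adjusted p = 0.000896), 1.14 ± 0.23 with pioglitazone (adjusted p = 0.0244) and 1.03 ± 0.20 with rosiglitazone (adjusted p = 0.0151). Its troglitazone call was kept whichever array was left out, as no other member's was; its pioglitazone call was kept in 3 of 11 fits that each left out 1 array and its rosiglitazone call in 7.

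Genes that come as tissue forms of 1 protein can be set side by side by their changes. Cox6a1, the form found in most tissues, had 0.18, 0.45 and 0.27 with troglitazone, pioglitazone and rosiglitazone and did not pass. Of subunit VIIa, the heart and muscle form Cox7a1 had 0.38, 0.46 and 0.70, Cox7a2 0.17, 0.30 and 0.24, and the related Cox7a2l, which takes part in joining complexes into supercomplexes, 0.48, 0.50 and 0.40, in the same order. None of the 3 passed. Cox7a2l had signals of 2737, 2681 and 3590 with troglitazone, 2706 and 2621 with pioglitazone and 2089, 2892 and 3642 with rosiglitazone, against 1810, 1923 and 2764 with vehicle; within each set every drug array was above the vehicle arrays. Of subunit VIII, Cox8a had -0.04, 0.17 and 0.37 and Cox8b 0.07, 0.38 and 0.23, while Cox8c, known from testis, had -0.05, 0.32 and 0.08. Of subunit VIb, Cox6b1 had -0.46, -0.31 and 0.19, and the testis form Cox6b2 -0.85, 0.18 and 0.17. Cox4i1 had 0.49, 0.63 and -0.02 and Cox7b 0.03, 0.36 and 0.64. Second probe sets of 3 of these genes, all dimmer, gave another direction with some of the drugs. That of Cox6b2 gave 1.96, 0.61 and 0.25, with signals of 408, 358 and 181 with troglitazone, 57.6 and 239 with pioglitazone and 51.4, 139 and 33.2 with rosiglitazone, against 83.1, 73.4 and 51.8 with vehicle. All its troglitazone arrays lay above the vehicle arrays, and the value did not pass (adjusted p = 0.116, unadjusted p = 0.00233). That of Cox8b gave 0.18, -0.45 and 0.27, with both pioglitazone arrays below every vehicle array, and that of Cox4i1 gave -0.54, -0.04 and -0.16; none passed. The direction therefore depends on the probe set for Cox6b2 with troglitazone, for Cox8b with pioglitazone and for Cox4i1 with both of these drugs. Of 7 markers of skeletal muscle 6 lay above 0 in the mean of the drugs, none passed, and 1 was below the floor on all vehicle arrays. Their summed signal was 1423 to 2845 on the drug arrays against 1718 to 1791 on the vehicle arrays, and their part in the change of Cox6a2 was not tested.

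Cox5b, a nuclear-encoded subunit on the matrix side, had signals of 9543, 6606 and 9937 with troglitazone, 10421 and 8607 with pioglitazone and 9354, 8679 and 11773 with rosiglitazone, against 6684, 6040 and 7532 with vehicle. All pioglitazone and rosiglitazone arrays were above the vehicle arrays, and troglitazone replicate 2 lay among them. The log2 fold change was 0.50 ± 0.12 for the mean of the drugs (adjusted p = 0.0459), a call kept in 2 of 11 fits that each left out 1 array. Its partner Cox5a had the lowest value of all members, -1.31 ± 0.45 (adjusted p = 0.225), and a second probe set gave -0.21. Cox5a was dim, with 77.0, 162 and 90.8 with troglitazone, 120 and 78.9 with pioglitazone and 54.2, 94.8 and 156 with rosiglitazone, against 252, 384 and 160 with vehicle. Every drug array but troglitazone replicate 2 was below every vehicle array.

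**Figure D4:**
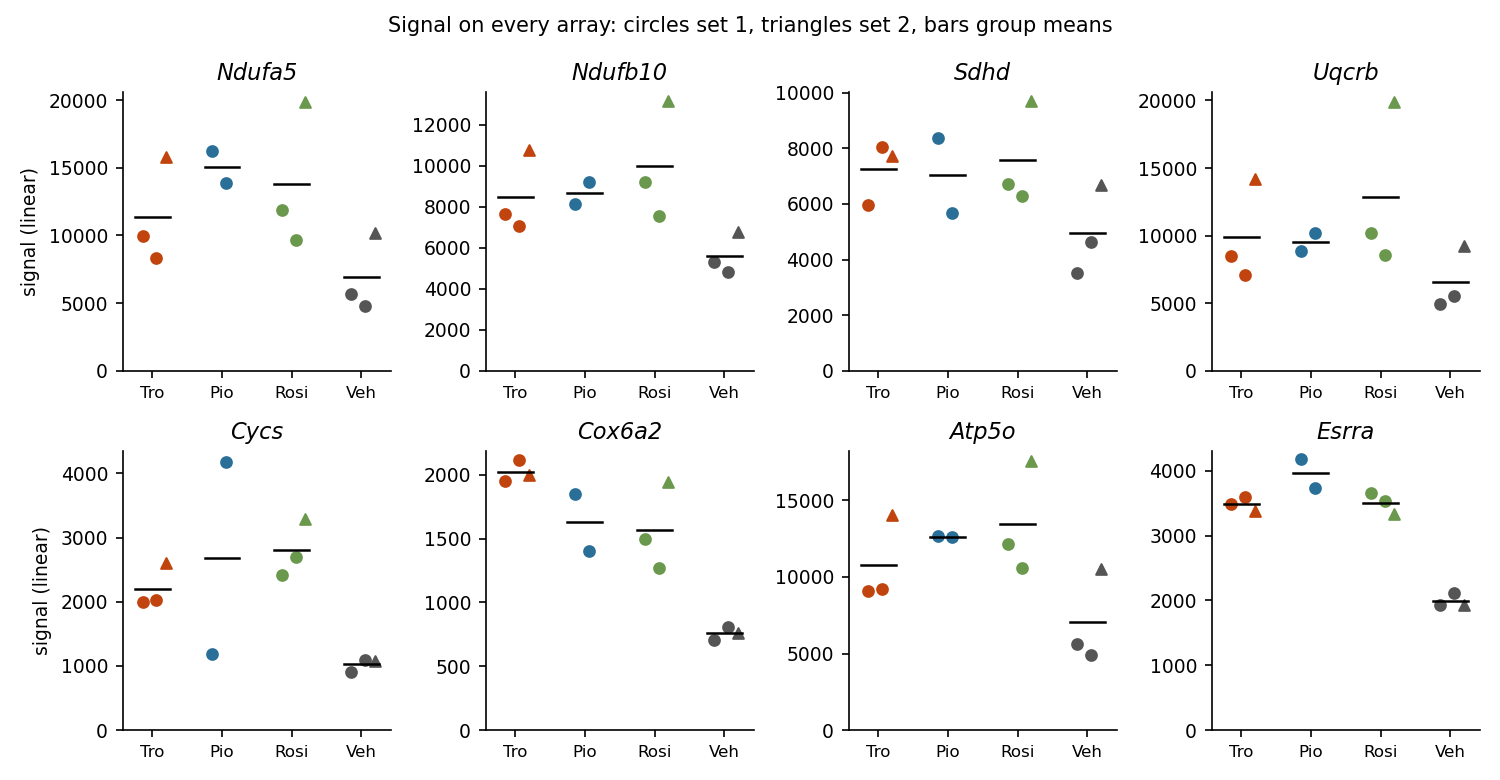
Deposited signal on a linear scale on every array for 7 member genes and Esrra in troglitazone (Tro), pioglitazone (Pio), rosiglitazone (Rosi) and vehicle (Veh) samples; circles are set 1, triangles set 2 and bars group means. For Cox6a2, Cycs, Ndufb10 and Esrra all drug arrays lie above all vehicle arrays, whereas for Ndufa5, Uqcrb, Sdhd and Atp5o the vehicle triangle lies among drug circles.

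In the ATP synthase, 1 of 14 genes rose with troglitazone, 2 with pioglitazone, 2 with rosiglitazone and 1 in the mean of the drugs. The medians were 0.13 with troglitazone (0.06 after quantile normalisation), 0.47 with pioglitazone and 0.43 with rosiglitazone. Atp5o encodes the oligomycin sensitivity-conferring protein, which joins the catalytic head to the peripheral stalk. It had signals of 9070, 9224 and 14018 with troglitazone, 12685 and 12577 with pioglitazone and 12166, 10579 and 17569 with rosiglitazone, against 5654, 4935 and 10503 with vehicle. Every pioglitazone and rosiglitazone array was above every vehicle array, and the troglitazone arrays were above the vehicle arrays of their own set. Atp5o rose with troglitazone (0.67 ± 0.13, adjusted p = 0.0128), pioglitazone (1.18 ± 0.15, adjusted p = 0.000901) and rosiglitazone (0.98 ± 0.13, adjusted p = 0.000757); the troglitazone call was kept in 6 of 11 leave-one-out fits.

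Atp5e, the small epsilon subunit, had signals of 3962, 4654 and 4826 with troglitazone, 7246 and 5840 with pioglitazone and 5188, 4371 and 5706 with rosiglitazone, against 3799, 4006 and 4505 with vehicle. Both pioglitazone arrays were above all others, and the other groups overlapped. It rose with pioglitazone (0.74 ± 0.16, adjusted p = 0.0398; kept in 2 of 11 fits that each left out 1 array), with 0.13 and 0.31 for troglitazone and rosiglitazone. Atp5l, subunit g in the membrane part, had signals of 13058, 10586 and 15834 with troglitazone, 14674 and 15481 with pioglitazone and 14642, 16187 and 20371 with rosiglitazone, against 10474, 11124 and 14152 with vehicle. The troglitazone arrays overlapped those of vehicle, and the others did not. It rose with rosiglitazone (0.52 ± 0.12, adjusted p = 0.0447; kept in 3 of 11 such fits), and a dim second probe set of the gene gave 0.18 with that drug.

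Atp5a1, the alpha subunit of the catalytic head, had the next smallest p in the mean of the drugs, with signals of 13010, 12678 and 16029 with troglitazone, 10383 and 15429 with pioglitazone and 14219, 13640 and 17693 with rosiglitazone, against 9145, 9837 and 12352 with vehicle. Pioglitazone replicate 1 alone of the drug arrays lay among the vehicle arrays. The log2 value was 0.45 ± 0.12 for the mean of the drugs (adjusted p = 0.0598). Larger but more variable values were those of Atp5pb, the b subunit of the peripheral stalk (0.92 ± 0.45, adjusted p = 0.496), and Atp5d, the delta subunit (0.52 ± 0.15, adjusted p = 0.0994). Atp5c1, the gamma subunit that turns inside the head, had 0.09, 0.09 and 0.06 with troglitazone, pioglitazone and rosiglitazone, and 0.04, -0.23 and 0.05 by a second probe set. The proton-conducting c ring is made from several genes, of which Atp5g2 had 0.21, 0.56 and 0.21 and Atp5g1, a dim gene, -0.53, -0.79 and -0.50; neither passed. Their second probe sets gave -0.31, -0.26 and -0.48 for Atp5g2 and 0.23, 0.18 and -0.08 for Atp5g1. The direction therefore depends on the probe set with each drug for Atp5g2 and with troglitazone and pioglitazone for Atp5g1.

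Counted by arrays, 6 of the 73 genes had every troglitazone array above every vehicle array, where 5.68% of all tested genes did. With pioglitazone, which had 2 arrays, 22 genes did (10% of all genes), and with rosiglitazone 17 did (5.56%). On all 8 drug arrays above all vehicle arrays were 4 members, Ndufb7, Ndufb10, Cycs and Cox6a2, and 1.61% of all tested genes.

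Troglitazone and pioglitazone, both at 20 µM, are the 1 pair of drugs that can be tested at a matched dose. They differ in the group at the end opposite the shared thiazolidinedione ring: in troglitazone this is a chroman, the ring system also found in vitamin E, whereas in pioglitazone it is a pyridine. No member was called in either direction (limma, 0 of 73 higher and 0 lower, against 0.0251% of all genes higher and 0.0126% lower). Of the 73 differences 58 lay below 0, that is lower with troglitazone, with a median of -0.27, against 3724 of 7962 and a median of 0.03 for all tested genes. At an unadjusted p under 0.05 there were 17 members, all lower with troglitazone, which is 23.3% of the 73, against 6.78% of all tested genes in both directions and 3.32% in this one. The members are brighter than most genes, and this share was not set against genes of like brightness. Against vehicle, the median of all genes with a mean log2 signal above 11 was also lower with troglitazone (0.12) than with pioglitazone (0.20). After quantile normalisation 52 of the 73 lay below 0, with a median of -0.19.

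The difference closest to passing was that of Ndufa5, -0.75 with a 95% interval from -1.08 to -0.42 (unadjusted p = 0.000221, adjusted p = 0.257). It was followed by Uqcr11 (-0.55, interval -0.85 to -0.25, adjusted p = 0.312) and Atp5e (-0.61, interval -0.95 to -0.28, adjusted p = 0.319). The difference was -0.51 for Atp5o, -0.50 for Ndufb5 and -0.44 for Uqcrh. Cox6a2 and Cycs had values nearer 0 or above it: it was 0.27 for Cox6a2 (interval -0.21 to 0.76) and -0.12 for Cycs (interval -0.90 to 0.66). By complex, the medians were -0.24 in complex I, -0.04 in complex II, -0.36 in complex III, -0.16 in complex IV and -0.36 in the ATP synthase; that of complex II turned to 0.10 after quantile normalisation. Over the 73 genes the 95% interval, before adjustment for the number of tests, reached a median of 0.38 to each side of a difference. A difference between the 2 drugs smaller than the reach of a member's own interval could therefore not be told from 0 with these arrays. Larger differences could also be missed after adjustment, as the -0.75 of Ndufa5 did not pass. Pioglitazone had arrays in set 1 only, and its replicate 2 had the highest ratio of 3' to 5' signal for the control transcript beta-actin (4.86, against 1.79 to 2.27 on the other arrays of set 1). With this ratio as a covariate 0 members were called between the 2 drugs, and 21 had an unadjusted p under 0.05; of the members' calls against vehicle, Cyc1 and Ndufb6 lost theirs with troglitazone (adjusted p = 0.0648 and 0.057) and Ndufb7 with rosiglitazone (adjusted p = 0.0632).

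**Figure D5:**
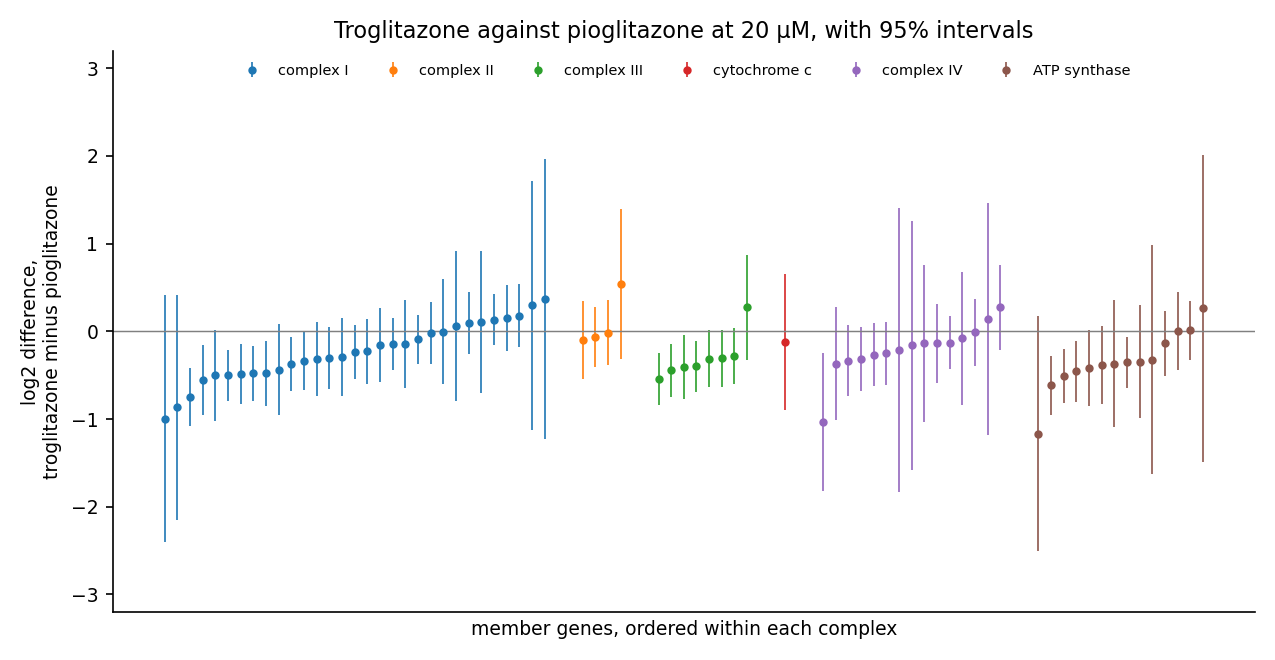
Log2 difference of troglitazone minus pioglitazone (vertical, with 95% intervals) for the 73 genes, ordered within each complex. Of the points 58 lie below 0; 17 intervals do not reach 0 before adjustment for the number of tests.

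Rosiglitazone was given at 1 µM, so its values stand beside those of the other drugs with no comparison. It carries a pyridine ring, as pioglitazone does. Its median of 0.38 over the members stands beside 0.20 for troglitazone and 0.43 for pioglitazone at 20 µM.

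Esrra, the estrogen-related receptor alpha that binds the promoters of many respiratory chain genes, rose with all the drugs. It had signals of 3489, 3589 and 3378 with troglitazone, 4187 and 3737 with pioglitazone and 3652, 3533 and 3331 with rosiglitazone, against 1930, 2120 and 1932 with vehicle. No drug array came near the vehicle arrays. The log2 fold change was 0.81 ± 0.13 with troglitazone (adjusted p = 0.00406), 0.96 ± 0.15 with pioglitazone (adjusted p = 0.00634) and 0.81 ± 0.13 with rosiglitazone (adjusted p = 0.00467). The call was lost with pioglitazone without pioglitazone replicate 1 (adjusted p = 0.0522) and with troglitazone without troglitazone replicate 4 (adjusted p = 0.0517). A dimmer probe set of Esrra gave 0.41, 0.37 and 0.14 with troglitazone, pioglitazone and rosiglitazone and did not pass.

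Of 25 tested regulators of mitochondrial genes, Esrra alone rose (4%). Of all tested genes, 0.967%, 0.728% and 0.98% did with troglitazone, pioglitazone and rosiglitazone. Pparg, which encodes the receptor of the drugs, had signals of 543, 473 and 738 with troglitazone, 462 and 511 with pioglitazone and 698, 665 and 1054 with rosiglitazone, against 1931, 1729 and 2886 with vehicle. No groups overlapped with vehicle, and it fell with troglitazone (-1.89 ± 0.21, adjusted p = 0.000133), pioglitazone (-1.93 ± 0.24, adjusted p = 0.000901) and rosiglitazone (-1.43 ± 0.21, adjusted p = 0.00204). Nrip1, a corepressor of metabolic nuclear receptors, fell with troglitazone (-1.27 ± 0.27, adjusted p = 0.0291; kept in 3 of 11 fits that each left out 1 array). Ppargc1a, the coactivator of mitochondrial biogenesis, was dim, with 203, 156 and 202 with troglitazone, 252 and 254 with pioglitazone and 339, 64.0 and 95.6 with rosiglitazone, against 87.8, 137 and 83.1 with vehicle. It had 0.89, 1.23 and 0.42 with troglitazone, pioglitazone and rosiglitazone and did not pass. Gabpa, a subunit of GABP, had 0.32, -0.60 and -0.11, and Tfam, which packs and transcribes mitochondrial DNA, 0.21, -0.73 and -0.29; both were dim. Ppargc1b and Nrf1 were not among the tested genes.

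With the drugs taken singly, 1 gene that builds the complexes and 1 that feeds them passed, both with pioglitazone. That drug had 0.728% of all tested genes called higher. Of 19 tested assembly factors 1 rose with pioglitazone and 0 with the other drugs: Sdhaf1, which helps to assemble complex II (0.89 ± 0.20, adjusted p = 0.0456; kept in 1 of 11 fits that each left out 1 array). The medians were -0.01, 0.20 and 0.12 with troglitazone, pioglitazone and rosiglitazone. Of 24 tested genes for electron entry, ubiquinone synthesis and exchange of ADP and phosphate 0, 1 and 0 rose with the same drugs, with medians of 0.09, -0.01 and 0.17. The 1 was Etfb, a subunit of the flavoprotein that brings electrons from fatty acid oxidation (0.87 ± 0.18, adjusted p = 0.0269; kept in 1 of 11 such fits).

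Of the marker lists, that of preadipocytes and fibroblasts lay lower with the drugs. In the mean of the drugs 54.2% of all tested genes lay below 0, 1.6% were called higher and 0.98% lower. Of 10 preadipocyte or fibroblast markers all lay below 0 in that mean and 4 fell. Their summed signal was 6653 to 10627 on the drug arrays against 13389 to 14099 on the vehicle arrays. Fibronectin (Fn1) was among the 4 markers that fell, by 1.02 on the log2 scale. Of 8 tested adipocyte markers 3 lay above 0 and 5 below; Cidec, a lipid droplet protein, rose and the hormone Retn fell, with overlapping sums of 70926 to 116510 against 83132 to 103190. Of 7 tested brown or beige markers, which include the members Cox7a1 and Cox8b, 6 lay above 0 and 1 below. Cidea rose, and the sums were 11872 to 15565 on the drug arrays against 9768 to 10144 on the vehicle arrays. Of 4 tested macrophage markers 2 lay above 0 and 2 below; Cd14 fell, with overlapping sums of 1381 to 3863 against 1942 to 3401. None of these markers was under the floor on all vehicle arrays. Their part in the changes of the subunit genes was not tested.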

How the data were processed

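Signal intensities for 12488 probe sets on 11 one-colour arrays were used as deposited by the authors. The values are linear and positive, and their 2% trimmed mean is 500.29 to 500.43 on every array, as the values themselves show; for the array software and its settings, the entry is: not given in the sources used here. After the 66 control probe sets were removed, signals below the 25th percentile of all values (73.7) were raised to it, probe sets above it on 2 or more arrays were kept, and log2 values were fitted with limma 3.58.1 in R 4.3.3 (lmFit, eBayes with intensity trend, set as a term, 6 residual degrees of freedom). Of the probe sets, 10833 are annotated to 1 gene, 396 to several and 1193 to none. The fit assumed that all groups share one spread. The fit was also run on simulated data, but these were made with one spread for all groups, so that run could not test this assumption.

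Members and gene lists were chosen with earlier results of these data known. Named genes were those that passed in any comparison, the 3 with the smallest p for the mean of the drugs in each complex, the 2 with the lowest values, the tissue isoforms, and listed regulators; Sdha and further members named by their place in a complex were added after their values were seen. Same-numbered arrays did not deviate together (r -0.04 to 0.01), so replicate numbers do not pair samples. No 2 arrays held identical values. Alternatives changed the normalisation, floor, filter, set term, trend, arrays and probe sets, or added the beta-actin 3' to 5' ratio as a covariate. Figures were drawn with matplotlib 3.10.9 in Python 3.11.15.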

Additional observations from a re-analysis of the deposited data

How the results depend on the processing

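No call of a single member and no overall median changed sign under the alternatives run, while the troglitazone minus pioglitazone median of complex II did, and 15 of 47 calls of single members were kept without any one array. With quantile normalisation 2, 6 and 7 members rose with troglitazone, pioglitazone and rosiglitazone, with medians of 0.11, 0.29 and 0.32. Median centring moved the median of all genes by 0.15 with pioglitazone; the members' medians were 0.30 with troglitazone and 0.61 with pioglitazone, 0.54 above all genes against 0.51 in the main setting, and 9 rose with rosiglitazone. Without the filter 2, 7 and 6 rose in the same order, in set 1 alone 1, 4 and 2, in fits of only the groups compared 1, 0 (limma; 24 at an unadjusted p under 0.05) and 1, and without pioglitazone 2 (highest beta-actin ratio) and rosiglitazone 2 (lowest median correlation with the other arrays, 0.833) 4, 5 and 7; pioglitazone then has 1 array, assumed to vary like the other groups. Without the set term 1, 0 and 0 rose and 1 in the mean of the drugs, with a pioglitazone median of 0.29; without the intensity trend 0 rose in any of these (limma; 13, 18, 24 and 22 at an unadjusted p under 0.05), and set 1 alone gave 6 in the mean of the drugs. Reading every probe set, the rosiglitazone median was 0.32. Leaving out 1 array at a time gave 1 to 8 with troglitazone, 5 to 12 with pioglitazone, 4 to 14 with rosiglitazone and 8 to 16 in the mean of the drugs, with medians of 0.16 to 0.26, 0.39 to 0.48 and 0.35 to 0.42. Between troglitazone and pioglitazone 0 members were called under every alternative run (limma; 13 at an unadjusted p under 0.05 with quantile normalisation, 21 with median centring). With the beta-actin ratio as a covariate 7, 14 and 16 rose. With the replicate block 6, 12 and 13 rose, and 14 in the mean of the drugs. Arrays give no counting depth; dim members near the floor limit what can be detected.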
